A study of Mus musculus with 22 samples.

Results

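The genes of the small nuclear RNAs U1, U2, U4, U5, U7, U11 and U12 were followed through RNA polymerase II (PolII) peak lists from mouse erythroid cells leaving mitosis with or without CTCF. The mm9 annotation (GENCODE vM1) holds 437 copies of these 7 RNAs among 37310 genes. A copy was kept when a peak of at least 1 of the 18 lists lay within 500 bp of it, so the 63 copies described here were chosen by their detection in these lists, and that detection is a description and not a finding. They comprised 28 of 206 annotated U1 copies, 15 of 51 U2, 6 of 43 U4, 7 of 10 U5, 5 of 116 U7, 1 of 5 U11 and 1 of 6 U12. Copies found in all 14 post-mitotic lists, 22 in number, carry a letter in genome order within their RNA (U1-A, U1-B and so on).

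The cells were G1E-ER4, a subline of GATA1-null proerythroblasts which, per the study, differentiates terminally when induced. In it the study fused both alleles of Ctcf to an auxin-inducible degron with mCherry and added the TIR protein that auxin engages. Every cell, controls included, carried these changes and was arrested in prometaphase with 200 ng/ml nocodazole. Prometaphase cells (0 min after release) and early-G1 (60 min), mid-G1 (120 min) and late-G1 cells (240 min) were sorted by DNA content, mCherry and, for prometaphase, a mitotic phospho-epitope, after treatment with auxin to degrade CTCF or without it (control). Each condition had 2 ChIP libraries, except mid-G1 with 3, and 1 input library per stage served both conditions, so a stage and its input cannot be told apart. Peaks stood at the start sites of Kit, Gata2, Tal1, Gfi1b, Epor and Nfe2 in 14 of 14 post-mitotic lists and of Lmo2 in 13, and at those of Cd3e, Alb and Myod1 in 0.

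U1, U2, U4 and U5 are the RNA cores of the major spliceosome, whose remaining partner U6 is made by RNA polymerase III. U11 and U12 stand in for U1 and U2 in the minor spliceosome, and U7 guides the 3′ end cleavage of replication-dependent histone mRNAs. PolII transcribes these short genes from a promoter of its own kind, with a distal element that often holds an octamer bound by Oct-1 and a proximal sequence element (PSE) bound by the SNAPc complex, and the Integrator complex cuts the transcript soon after the gene ends. Most annotated copies in a mammalian genome are inactive copies left by reverse transcription.

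The first 48 bases (mm9) are shown for 1 lettered copy of each RNA but U11, which had none. The letters that act on pre-mRNA lie there and are in capitals where a search found them. They are the 5′ splice site pairing bases of U1 and the branch site pairing bases of U2 and U12. In U5 they are the exon-binding loop, and in U7 the histone pre-mRNA pairing bases. No letters were marked in U4.
U1-B, chr11:87236369-87236416 (+): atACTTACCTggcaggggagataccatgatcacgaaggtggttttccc
U2-C, chr11:83085000-83085047 (+): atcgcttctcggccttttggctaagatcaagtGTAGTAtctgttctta
U4-A, chr5:115940263-115940310 (+): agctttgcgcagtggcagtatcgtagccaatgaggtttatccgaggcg
U5-B, chr4:116862547-116862594 (+): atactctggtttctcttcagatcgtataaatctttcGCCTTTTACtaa
U7-A, chr6:124691257-124691304 (-): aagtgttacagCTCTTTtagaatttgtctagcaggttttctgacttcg
U12-A, chr15:82980074-82980121 (+): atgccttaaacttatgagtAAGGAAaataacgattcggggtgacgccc

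The 22 copies were near full length and near identical within an RNA. Against the commonest sequence of its RNA among them, the share of matching bases ran from 92.2% to 100% with a median of 99.5%. For the other 40 copies with a reference it ran from 48.2% to 96.3% with a median of 74.0%, close to the 74.2% of the 370 copies with no peak within 500 bp. These values are a description, since the reference comes from the 22 copies: U4-A, U7-A and U12-A are their own reference, and for U5, where only 1 of 6 copies is exact, no sequence is commonest and 1 was taken. The 4 U1 copies matched at 96.3% to 100%, the 9 U2 copies at 95.3% to 100% and the 6 U5 copies at 92.2% to 100%. A full sequence was no guarantee of a peak within 500 bp, since 22 of those 370 copies matched at 95% or more. Some had a peak farther away, among them U1 copies with 99.39% identity at 530 and 559 bp and with 96.95% at 853 bp. Inside 13 of the 370 copies no stretch as long as a read occurs once in the genome, so PolII within them cannot be read from these lists. Whether the 22 copies are silent was not tested.

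Promoter letters, which the rule did not use, are given as a description. The octamer ATGCAAAT, searched on both strands 150 to 300 bases before the first base, was found at 15 of 22 copies (68.2%), at 1 of the 41 other members (2.44%), at 5 of 374 copies without a peak (1.34%) and at 179 of 22367 protein-coding genes (0.8%). All 15 matches lay 179 to 233 bases before the gene. The word ACCNT, read on the gene's strand 36 to 75 bases before the first base, stood at 16 of 22 copies (72.7%), 4 of 41 other members (9.76%), 42 of 374 copies without a peak (11.2%) and 8.86% of protein-coding genes. Both elements stood at 11 of the 22 copies (50%) and at 0.107% of protein-coding genes. The words were chosen during the analysis, they overlap neither each other nor the genes, and ACCNT marks only part of the proximal element. Copies of 1 RNA are related, so the 22 are not independent counts. Of the 50-base words in the 250 bases before the gene, 14.4% occur once in the genome at U2-A and 25.9% at U2-F. The share was 51.7% at U2-G, 64.2% at U1-A, 71.1% at U2-H and 100% at the other lettered copies. A match describes letters and is not evidence of binding. U2-B and U5-C had neither motif. The windows 36 to 75 bases before the gene are shown for copies the results turn on, with ACCNT in capitals where it occurs.
U1-A, chr3:96132273-96132312 (+): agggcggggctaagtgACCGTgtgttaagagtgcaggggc
U1-B, chr11:87236294-87236333 (+): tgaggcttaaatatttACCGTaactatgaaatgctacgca
U2-C, chr11:83084925-83084964 (+): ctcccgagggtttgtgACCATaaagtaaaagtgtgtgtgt
U2-E, chr11:101488605-101488644 (+): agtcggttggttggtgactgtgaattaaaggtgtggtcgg
U2-B, chr8:53422495-53422534 (-): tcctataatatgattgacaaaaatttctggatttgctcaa
U5-B, chr4:116862472-116862511 (+): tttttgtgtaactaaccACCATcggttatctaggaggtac
U5-C, chr4:116875058-116875097 (+): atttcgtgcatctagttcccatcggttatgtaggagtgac
U5-E, chr9:65044530-65044569 (-): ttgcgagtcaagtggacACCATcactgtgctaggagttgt
U7-A, chr6:124691340-124691379 (-): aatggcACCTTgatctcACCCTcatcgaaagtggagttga
U12-A, chr15:82979999-82980038 (+): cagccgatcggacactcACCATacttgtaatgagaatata
Where ACCNT occurred it began 58 to 60 bases before the gene in each of these 16 copies, with 1 further match in U7-A at 69 bases. The longer stretch before U4-A, from base 260 to the first 9 bases of the RNA, holds both elements in capitals, the octamer on the other strand.
U4-A, chr5:115940003-115940271 (+): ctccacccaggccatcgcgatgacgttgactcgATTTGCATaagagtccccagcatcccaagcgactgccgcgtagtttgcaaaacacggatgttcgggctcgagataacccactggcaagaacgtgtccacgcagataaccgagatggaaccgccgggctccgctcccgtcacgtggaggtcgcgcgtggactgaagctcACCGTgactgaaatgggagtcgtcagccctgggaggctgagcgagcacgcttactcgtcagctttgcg

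Of the 22 copies, 17 lay between protein-coding genes, 3 in introns and 2 over exons. U1-B and U1-C stood 3686 bp apart in an intron of Tex14, U5-B to U5-D in a row on chromosome 4, U5-E and U5-F on chromosome 9, and U2-D to U2-H in a row on chromosome 11 beside Rdm1. Several peaks could also belong to a neighbour: the first base of Grcc10 lay 88 bp from U7-A, that of Rdm1 171 bp from U2-E, that of Poldip3 260 bp from U12-A, that of Refbp2 315 bp from U5-A and that of Eapp 885 bp from U1-D. PolII at the copy and PolII at the neighbour's start cannot be told apart there. U2-F and U2-G shared 1 wide peak in 3 lists and 1 region in the tests, so they count once among regions.

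Members were found in every list. The 4 prometaphase lists, with 2414 to 3918 peaks, held 20 or 21 of the 63 copies, all of them among the 22. Early-G1 lists (100031 to 107213 peaks) held 36 to 41, mid-G1 lists (50594 to 107666 peaks) 24 to 41 and late-G1 lists (74154 to 117125 peaks) 33 to 43. The shortest post-mitotic list, of mid-G1 control replicate 1, held 24, of which 22 were the lettered copies.

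**Figure D1:**
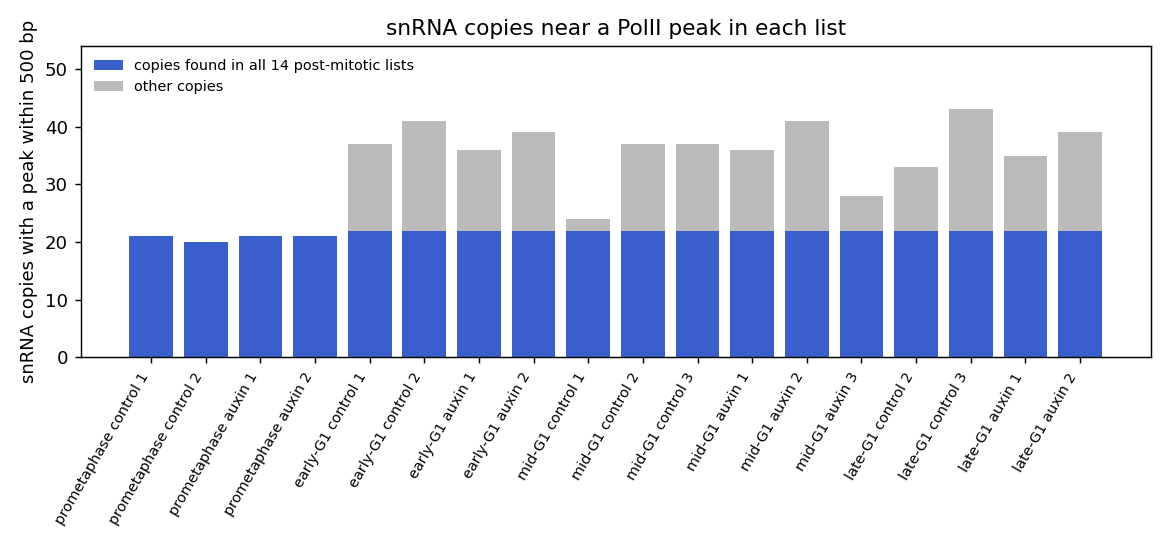
Number of snRNA copies (vertical axis) with a PolII peak within 500 bp in each of the 18 lists (horizontal axis, by stage, condition and replicate). Blue bars count the copies found in all 14 post-mitotic lists and grey bars the other copies, which are absent from the 4 prometaphase lists.

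In prometaphase, 20 of the 22 copies were found in 4 of 4 lists. U7-A was found in 3, and U2-B in none. Ranked within a list by fold enrichment (1 is the highest peak of the list), 5 to 7 copies held places in the top 10 and 15 in the top 100 of each prometaphase list, and the median rank of the copies found was 19 to 24. In the longer post-mitotic lists the top 10 held 2 to 7 of these copies and the top 100 held 9 to 17. Median ranks were 25.5 to 100 in early-G1, 19.5 to 67 in mid-G1 and 47 to 129 in late-G1.

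U5-B led the list of ranks. The U5 RNA holds the exons in place during the splicing reaction. The peak at U5-B ranked 2, 2, 1 and 8 in prometaphase (control 1 and 2, auxin 1 and 2), 2, 3, 5 and 11 in early-G1, 2 to 6 in mid-G1 and 2, 2, 75 and 2 in late-G1. Only late-G1 auxin replicate 1 stood apart, and there the local background was 1.67 times the genome level against 1 in the 3 other late-G1 lists while the summit held 276 reads against 302 to 336. U5-E ranked 5 to 12 in prometaphase and U5-F 6 to 18, and U5-A ranked 6 to 23. U5-C and U5-D stood lower, at 192 to 348 and 385 to 798 in prometaphase, although all 6 match the same RNA.

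The U1 copies U1-B and U1-C were among the strongest peaks throughout, with ranks of 5 to 15 and 3 to 10 in prometaphase. U1-B held rank 1 in each of the 4 early-G1 lists. U1-D ranked 24 to 46 in prometaphase. U2, which pairs with the branch site, had 9 of the 22 copies. U2-H ranked 2 to 9 in prometaphase and U2-F 2 to 18, U2-A, U2-C and U2-E lay between 16 and 29, and U2-D was weak at 481 to 1644.

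The remaining RNAs had 1 strong copy at most. U4-A, the RNA that holds U6 inactive until activation, ranked 146 to 302 in prometaphase. U12-A ranked 245 to 966. The peak at U7-A ranked 392, 1644 and 2860 in the 3 prometaphase lists that held it and 1198 to 6063 after mitosis, and its summit lay before the gene, at a median of -168 bp from the first base. The 1 U11 member, in an intron of Piwil2 497 bp from its start, was found in late-G1 auxin replicate 2 alone, at rank 15279.

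**Figure D2:**
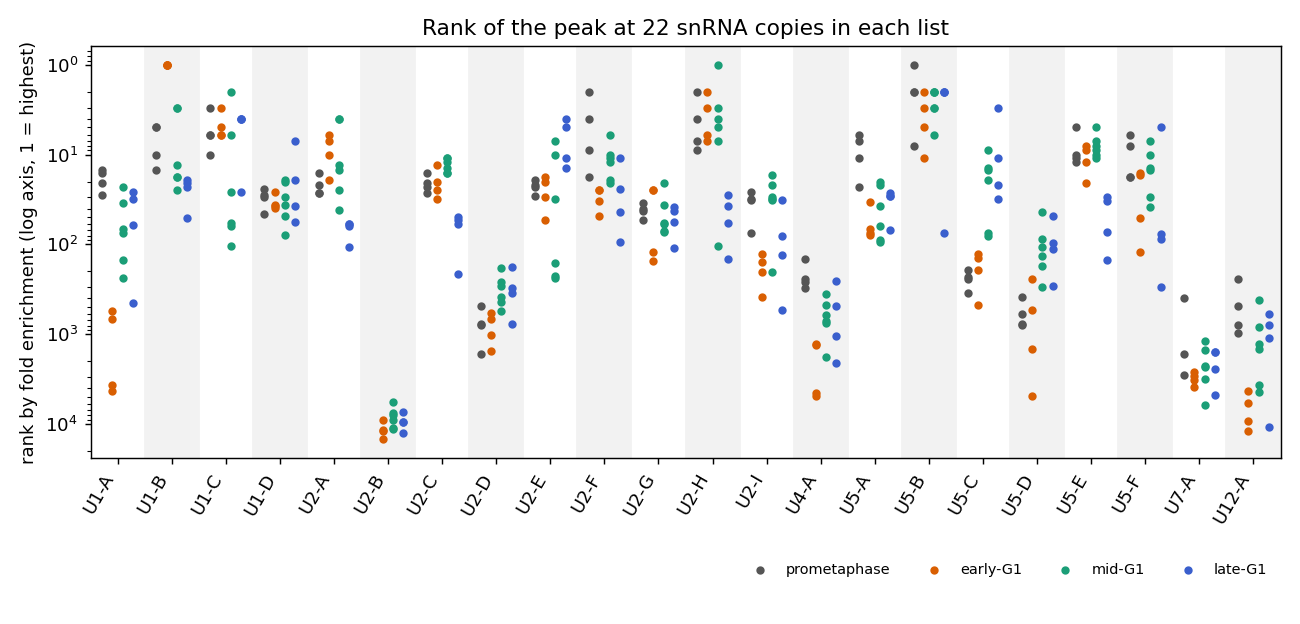
Rank of the peak within its list by fold enrichment (vertical axis, logarithmic, rank 1 at the top) for the 22 snRNA copies found in all 14 post-mitotic lists (horizontal axis). Each point is 1 of the 18 lists, coloured by stage; U1-A, U4-A and U12-A stand lowest in early-G1, and U2-B has no prometaphase point.

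U2-B was unlike the others. It lies 1174621 bp from the nearest coding start, matched the U2 sequence at 98.95%, and had neither promoter motif. Its peak was 258 to 317 bp wide in all 14 lists, against medians per list of 1922 to 2902 bp over the 22 copies, and its rank ran from 5605 to 14737. The summit stayed within the annotated copy. Of the words of read length (50 bases) inside U2-B, 58.5% occur once in the genome, so part of it is not open to uniquely placed reads.

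The other 41 members were set apart because they were not found in all 14 post-mitotic lists, so their lower list counts follow in part from that split. None was found in prometaphase. They were found in a median of 4 lists and 12 at most, 11 of them in 1 list only, and 24 lay in introns, 16 between genes and 1 over an exon. The best rank of a copy over its lists had a median of 40517, and only 2 copies reached the first 1000, the better at 799. U5_chr1_194571765, in an intron of Hhat, was the 1 copy among them with both promoter motifs, matched the U5 reference at 93.1%, and was found in late-G1 control replicate 3 alone, at rank 110826. Of the 41, 6 lay in wider regions present in all 14 lists and so entered the tests.

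The 500 bp limit left out copies with peaks farther away, some of them high in their lists. Among the copies just inside it were U4-A at 377 bp, a U1 copy in an intron of Zc3h7a at 371 bp (1 list), U1-A at 364 bp and U12-A at 354 bp. Just outside were U1 copies in introns of Rock1 at 530 bp and of Ss18 at 559 bp. A U11 copy (chr4:131825995-131826128, minus strand) lay 675 bp from a peak, and peaks within 2000 bp of it were found in 18 lists. The best of them in each list ranked 533 to 1169 in prometaphase and 4393 to 71937 after mitosis. This U11 copy had the octamer at 215 bases and ACCNT at 59 bases before its start. A U1 copy (chr3:96290478-96290642, minus strand; 96.95% identity) at 853 bp had peaks within 2000 bp at ranks of 12 to 61 in prometaphase and 71 to 6786 after mitosis. A second U4 copy (chr5:115939468-115939608, 98.6% identity) lay 1172 bp away, and its nearest peak was that of U4-A.

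At most copies the median PolII summit lay past the end of the gene. At 19 of the 22 copies the median summit over lists was downstream of the annotated 3′ end, by 95.5 bp at U5-C to 691 bp at U4-A, and 640.5 bp at U1-A. The exceptions were U5-D and U2-B, with medians of 95.5 and 88.5 bp from the first base and so within the copy, and U7-A. At U1-A, U4-A and U12-A, counted among the 19, the peak overlapped the copy in no list. Their summits could not fall within the gene, and whether these peaks belong to the copies was not tested. The 18 summits lay within 308 to 361 bp of the first base at U2-A and within 523 to 608 bp at U5-A. They were spread wider at U1-B (270 to 814 bp), U1-C (293 to 926 bp) and U2-E (329 to 1018 bp).

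Placement of reads bears on these positions, since reads that match several places are dropped by the mapping quality filter. At 8 of the 22 copies, among them U1-A to U1-C, U2-C and U2-E to U2-H, 0% of the 50-base words inside the gene occur once in the genome. At U7-A the share was 100%, and at U5-A and U5-B 50.7%. At the median summit it was 100% at 19 copies and 75.5% at the lowest, U2-H. PolII within those 8 genes cannot be read from these lists.

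**Figure D3:**
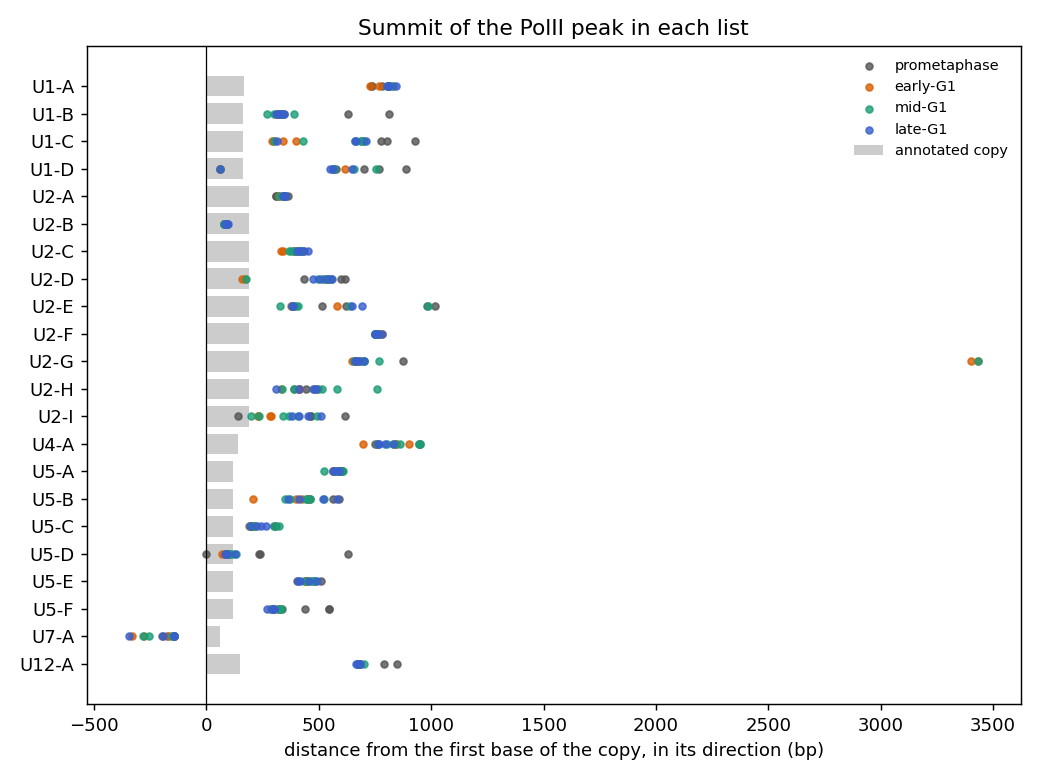
Distance of the peak summit from the first base of the copy, in the direction of the gene (horizontal axis, bp), for 22 snRNA copies (vertical axis); each point is 1 list, coloured by stage, and grey bars span the annotated copy. Median summits lie beyond the grey bar at 19 of 22 copies; U7-A is the copy with summits before its start, and the far U2-G points are the peak it shares with U2-F.

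After mitosis, peaks at part of these copies came close to the most that the processing allows. Fold enrichment is the pileup of fragments at the summit plus 1, divided by the local background plus 1, and both parts were recovered from the lists. With duplicates removed, single-end reads can begin once per position and strand, which limits the pileup to 2 fragment lengths, taken here as 2 times the narrowest peak of the list (306 to 364). That the narrowest peak equals the fragment length is an assumption, on which each percentage of the limit depends. The highest pileup of a whole list stayed under that limit in all 18 lists and reached 99.7% of it in late-G1 control replicate 3. Early-G1, mid-G1 and late-G1 lists held 1 to 84 peaks at 80% of the limit or more, and 0 to 15 of the 22 copies were among them. U2-B, U7-A, U12-A and U4-A stayed at 44.8% of the limit or less in these lists. In prometaphase the highest pileup was 37.8% to 50.0% of the limit, and the copies found had medians of 25.0% to 28.98%.

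U1-B shows the range. Its summit held 105, 111, 131 and 90 reads in prometaphase, 327, 342, 299 and 283 in early-G1, 244 to 343 in mid-G1 and 341, 309, 297 and 300 in late-G1. That is 27.4% to 41.7% of the limit in prometaphase and 75.3% to 97.1% after mitosis. The 10th peak of a post-mitotic list had a fold enrichment of 91.2 to 121.5 and the 100th of 65.5 to 83.7, so places at the head of a list are set by small differences in fold.

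Stages were compared on -log2 of the rank over 15784 regions found in all 14 post-mitotic lists, with limma; a region was called at a Benjamini-Hochberg adjusted p under 0.05, and a change of 1 is a factor of 2 in the rank number, positive toward the head of the list. The 63 copies contributed 28 copies in 27 regions. Between early-G1 and late-G1, 12 of the 27 regions were called, 7 higher and 5 lower in late-G1, against 14.3% of all regions. The median change was 0.30 over the 27 regions and -0.05 over all regions. The spread of the members was wider than that of other regions, with a median standard error of 0.45 against 0.32. With the normal score of the rank, which gives the head of a list less weight, 2 of the 27 were called (1 higher, 1 lower) and 246 of all regions, and the same scale called 2 members from early-G1 to mid-G1 and 0 from mid-G1 to late-G1 and with auxin.

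The 7 copies that rose toward the head of the list were U1-A, U5-C, U5-D, U12-A, U2-E, U4-A and U2-D. U1-A ranked 681, 556, 3651 and 4238 in early-G1 (control 1 and 2, auxin 1 and 2) and 31, 451, 26 and 61 in late-G1 (control 2 and 3, auxin 1 and 2). The early-G1 and late-G1 lists did not overlap. Its change was 4.50 ± 0.61 (SE, adjusted p = 0.000215). The pileup rose with it, from 116, 136, 70 and 60 reads to 271, 176, 238 and 205. The local background was 1 to 1.17 times the genome level in early-G1 and 1 in each late-G1 list. In no list did this peak overlap U1-A itself, and its median summit lay 640.5 bp past the end of the copy.

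In control cells alone the change at U1-A was 2.38 (adjusted p = 0.142), and with auxin 6.63 (adjusted p = 0.00116).

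At U12-A and U4-A the pileup also moved more than the background, and the stages overlapped in rank. Here too the peaks did not overlap the copies, with median summits 525 and 691 bp past their ends. The peak assigned to U12-A could also belong to Poldip3, as given above. U12-A changed by 2.22 ± 0.64 (adjusted p = 0.0287), its summit held 48, 71, 32 and 26 reads in early-G1 and 110, 45, 89 and 76 in late-G1, and its background was 1 in all 18 lists. Late-G1 control replicate 3, at rank 10848, fell among the early-G1 lists, which ranked 4232 to 11890. U4-A changed by 1.78 ± 0.54 (adjusted p = 0.0346), with pileups of 92, 115, 57 and 55 against 148, 127, 103 and 77. Its early-G1 ranks were 1284 to 4910 and its late-G1 ranks 255 to 2095. In control cells alone neither was called (U12-A 0.96, adjusted p = 0.629, and U4-A 0.84, adjusted p = 0.610), and with auxin both were (3.49 and 2.72). U2-D changed by 1.35 ± 0.44 (adjusted p = 0.0492), and relative to the genome level its pileup rose by 0.39 and its background by 0.21 on the log2 scale.

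At U5-C and U5-D the background moved more than the pileup. U5-C ranked 129, 192, 141 and 475 in early-G1 and 22, 3, 11 and 31 in late-G1 (change 4.04 ± 0.62, adjusted p = 0.000655), and U5-D 243, 535, 1468 and 4901 against 112, 48, 97 and 288 (3.15 ± 0.55, adjusted p = 0.00139). The stages did not overlap at U5-C and overlapped at U5-D. The local background at both was 1.46 to 1.75 times the genome level in early-G1 and 1 in all late-G1 lists. In log2 terms it changed by -0.68 at U5-C and -0.74 at U5-D, while the pileup changed by 0.17 and 0.24. U2-E ranked 20, 18, 30 and 53 and then 4, 5, 11 and 14 (1.88 ± 0.38, adjusted p = 0.00385), with a log2 pileup change of -0.01 and a background change of -0.16.

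The 5 copies that fell were U1-B, U2-H, U2-A, U5-E and U2-C, with early-G1 pileups of 63.7% to 94.5% of the limit. U1-B went from rank 1 in all 4 early-G1 lists to 21, 51, 19 and 23 in late-G1 (change -4.71 ± 0.59, adjusted p = 0.000135), with fold enrichments of 134.7, 109.4, 132.9 and 119.0 and then 102.0, 80.6, 103.1 and 98.7. The groups did not overlap. Its pileup changed by -0.12 on the log2 scale and its background by 0.45, from 1 in each early-G1 list to 1.33, 1.33, 1.34 and 1.46.

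U2-A ranked 10, 7, 6 and 19 and then 63, 107, 59 and 60 (change -2.89 ± 0.61, adjusted p = 0.00527). Its summit held 300, 326, 267 and 250 reads in early-G1 and 335, 319, 294 and 297 in late-G1, and the background rose from 1.06 to 1.07 times the genome level to 1.59 to 1.76. The pileups of the stages overlapped, and the ranks did not. U2-H changed by -3.77 ± 0.95 (adjusted p = 0.0138), U5-E by -2.30 ± 0.42 (adjusted p = 0.00192) and U2-C by -1.85 ± 0.36 (adjusted p = 0.00285). Backgrounds there were 1 to 1.17 in early-G1 and 1.33 to 1.76 in late-G1, and log2 pileup changes were -0.10, 0.00 and -0.01.

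In 8 of these 12 copies the local background moved more than the pileup, in all 5 that fell and in U5-C, U5-D and U2-E. The local background comes from the input of the stage where it exceeds the genome level, and its part in the rank changes was not tested. Ranking by the summit pileup instead, an alternative added after the data were seen, the change at U1-A was 4.04 (adjusted p = 0.000837). U2-A changed sign to 1.40 (adjusted p = 0.0477), U5-E to 0.86 (adjusted p = 0.0277) and U2-C to 0.44 (adjusted p = 0.249), and U1-B stood at -1.33 (adjusted p = 0.244). Ranked by -log10 p, 11 were called (9 higher, 2 lower), and 3 of the falls were not among them: U2-A at -0.62 (adjusted p = 0.461), U5-E at -0.47 (adjusted p = 0.391) and U2-C at -0.37 (adjusted p = 0.417). With ranks by summit pileup, 8 of 27 member regions were called, all 8 higher in late-G1.

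**Figure D4:**
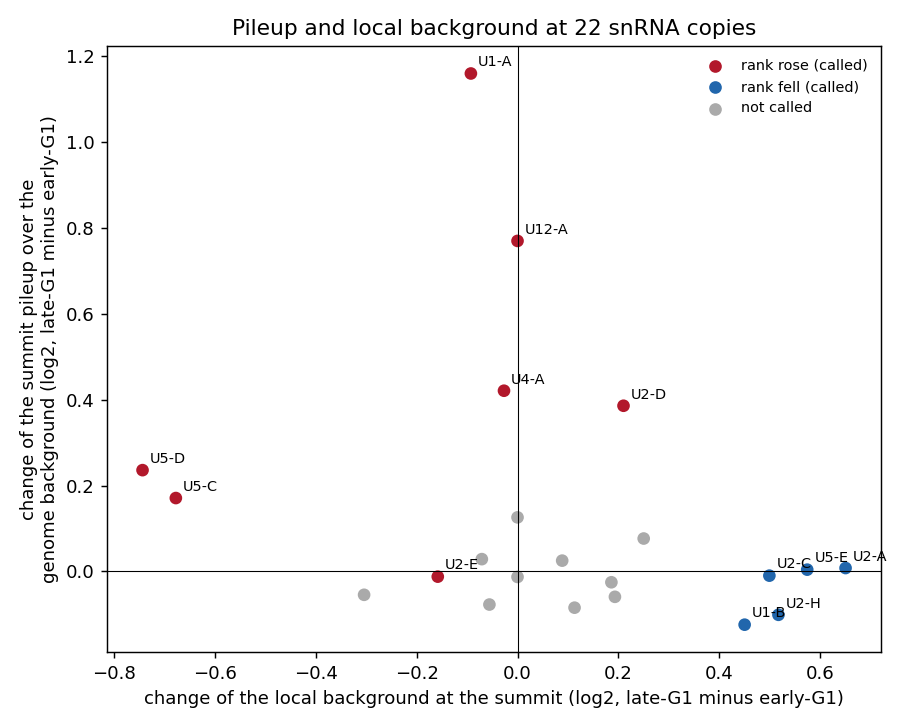
Change between early-G1 and late-G1 of the local background at the summit (horizontal axis) and of the summit pileup over the genome background (vertical axis), for 22 snRNA copies. Both are differences of mean log2 values, averaged over libraries within control and auxin and then over the conditions. Called falls in rank (blue) lie at a background change of 0.45 to 0.65 and a pileup change near 0; among called rises (red), U1-A, U12-A, U4-A and U2-D rise in pileup, and U5-C and U5-D move left.

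The same course was tested in control and treated cells alone. In control cells 6 of 27 regions were called (2 higher, 4 lower) against 3.13% of all regions, and in auxin-treated cells 6 (5 higher, 1 lower) against 4.62%. U5-C rose in both, by 4.28 ± 0.88 in control (adjusted p = 0.0148) and 3.81 ± 0.88 with auxin (adjusted p = 0.0221), and U1-B fell in both (-5.03 and -4.39). Called with auxin and not in control were U1-A, U5-D (4.00 against 2.30), U12-A and U4-A. Called in control and not with auxin were U5-E (-3.05 against -1.56, adjusted p = 0.146 with auxin), U2-C (-2.73 against -0.96, adjusted p = 0.298), U2-A (-3.30 against -2.48, adjusted p = 0.113) and U2-E (2.09 against 1.68, adjusted p = 0.0830). The difference of the course between conditions was called in 0 of 27 member regions and in 0% of all regions by limma, with an unadjusted p under 0.05 in 4 of the 27 and 756 of the 15784. The lowest adjusted p among members was 0.850, so a different course with and without auxin was not detectable with these libraries. U5-F (5.11 ± 1.39) and U1-A (4.25 ± 1.21) had the lowest unadjusted p, and neither passed.

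The first step was also tested alone. From early-G1 to mid-G1, 9 member regions were called, 8 higher and 1 lower, against 13.3% of all regions. U1-A moved to ranks of 23 to 236 in mid-G1 (median 71, n = 6, change 4.42 ± 0.55, adjusted p = 0.000111) and its pileup to 163 to 268. U5-D changed by 3.05, U5-C by 3.04, U2-I by 2.46, U12-A by 2.28, U4-A by 1.86 and U2-D by 1.42, and U1_chr15_75866889, which lay in a tested region but was itself found in 8 lists, by 0.87. U1-B was the 1 that fell, with a change of -3.31 ± 0.54 (adjusted p = 0.000788). In 4 of the 8 called lettered copies the background moved more than the pileup. At U2-I the log2 background changed by -0.64 and the pileup by 0.21, and at U1-B the pileup changed by 0.10 and the background by 0.19. Without early-G1 auxin replicate 2 the number called was 4, and without early-G1 control replicate 1 it was 5.

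From mid-G1 to late-G1, 5 member regions were called, 4 lower and 1 higher, against 6.96% of all regions. They were U2-H (-3.20), U5-E (-2.83), U2-A (-2.53), U2-C (-2.53) and U2-E (2.79). In all 5 the background moved more than the pileup, and with ranks by summit pileup or by -log10 p, 0 of the 27 were called. U1-A, U4-A and U12-A changed by 0.08, -0.08 and -0.06 in this step.

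Entry into G1 was compared over the 897 regions found in all 18 lists, with ranks taken anew among them. There 7 of 19 member regions were called, 6 lower and 1 higher in early-G1 than in prometaphase, against 41.9% of all 897. U1-A fell by 4.90 ± 0.60 (adjusted p = 6.24e-05): its summit held 98, 78, 99 and 83 reads in prometaphase and 116, 136, 70 and 60 in early-G1. U5-A fell by 2.62 ± 0.49 (adjusted p = 0.000956), the region of U2-F and U2-G by 2.39, U2-I by 2.29, U4-A by 1.85 and U12-A by 1.14, and U1-B rose by 2.89 ± 0.70 (adjusted p = 0.00497). Only at U1-A was the pileup over the genome level itself lower, by 0.76 on the log2 scale. At the other copies that fell it was higher in early-G1, by 0.33 at U12-A to 1.17 at U2-I, so their lower place is relative to the other regions. At U2-I the local background also differed, from 1 to 1.58 times the genome level in prometaphase to 1.88 to 2.51 in early-G1.

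Among post-mitotic lists, the early-G1 ranks of U1-A (556 to 4238) did not overlap those of mid-G1 (23 to 236) or late-G1 (26 to 451). The 2 early-G1 control lists stood at 681 and 556 and the 2 auxin lists at 3651 and 4238, with pileups of 33.0% and 37.6% against 21.0% and 17.1% of the limit. The auxin change there was -2.68 ± 0.86 and did not pass the test (adjusted p = 0.556).

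With auxin 1 member region was called. Over the 3 post-mitotic stages U2-E fell by 2.18 ± 0.29 (adjusted p = 0.00106) and no member was called higher, against 0.798% of all regions called. The median change was -0.07 over the 27 regions and -0.03 over all. Within mid-G1, U2-E fell by 3.99 ± 0.44 (adjusted p = 0.000212), the 1 member called there against 0.241% of all regions. Within early-G1 (0.0127% of all regions) and late-G1 (0.0507%) limma called 0 members, with an unadjusted p under 0.05 at 4 and 3 of the 27.

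U2-E is 1 of 5 U2 copies in the row beside Rdm1. In mid-G1 it ranked 10, 31 and 7 in control and 223, 239 and 163 with auxin, and the groups did not overlap. The summit held 208, 298 and 282 reads in control and 276, 283 and 276 with auxin. The local background was 1, 1.21 and 1 times the genome level in control and 2.41, 2.21 and 1.97 with auxin. The summit lay 639, 329 and 984 bp from the first base in control and 381, 406 and 397 bp with auxin, under 1 shared input. With ranks by summit pileup the average auxin change was -0.48 (adjusted p = 0.252). In early-G1 U2-E ranked 20 and 18 against 30 and 53, and in late-G1 4 and 5 against 11 and 14.

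**Figure D5:**
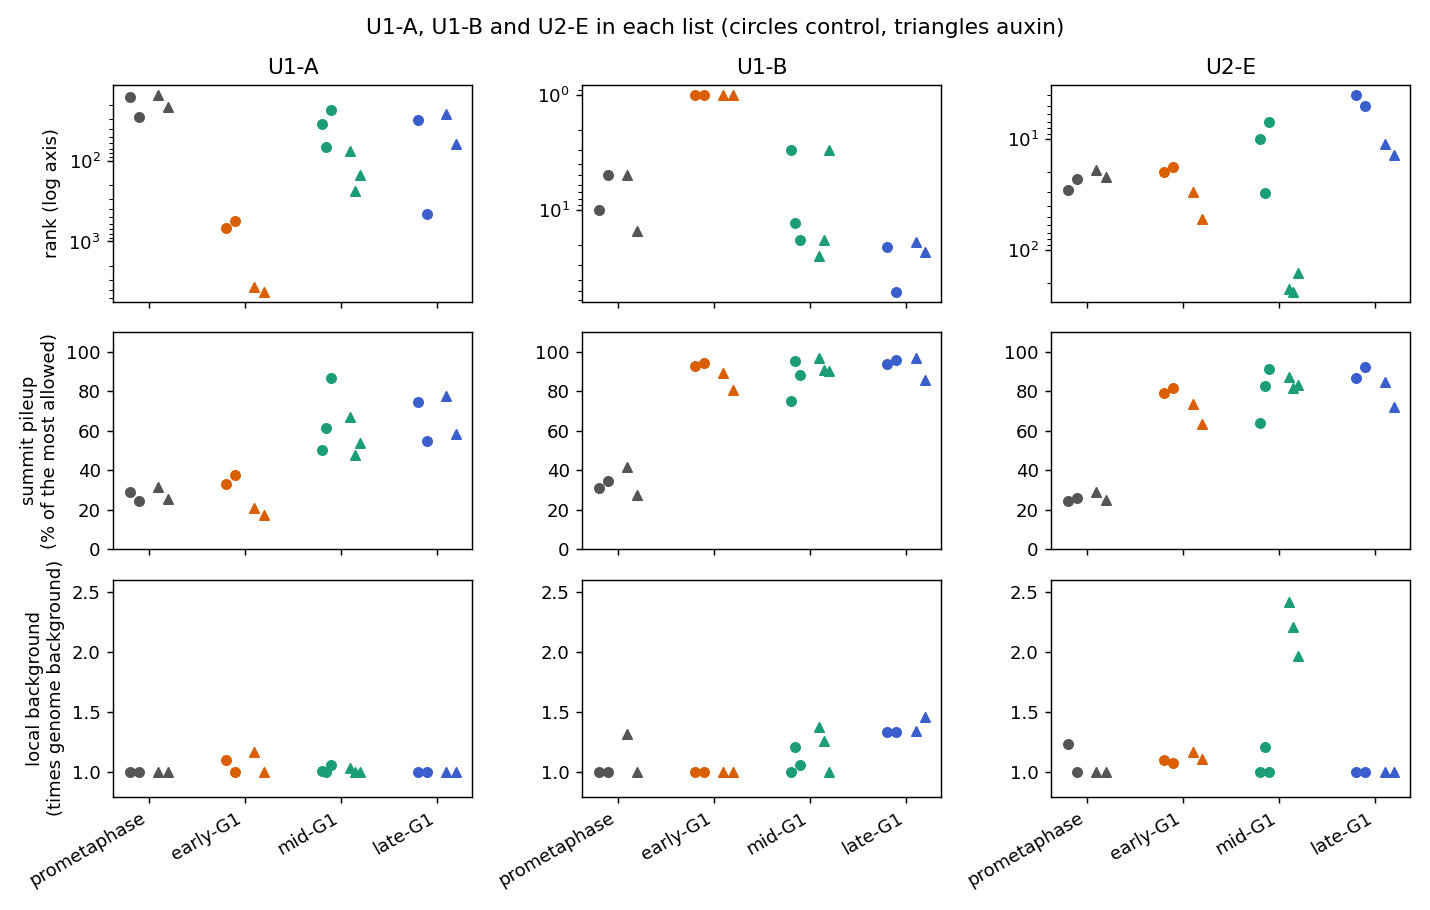
Rank (top row, logarithmic axis), summit pileup as a percentage of the most that 1 read per position and strand allows (middle row) and local background relative to the genome background (bottom row) of U1-A, U1-B and U2-E; each point is 1 list, by stage along the horizontal axis, with circles for control and triangles for auxin. U1-A is at 17.1% to 37.6% of the limit in early-G1 and 47.7% to 87% in mid-G1 at a background of 1 to 1.17, U1-B stays at 75.3% to 97.1% of the limit after mitosis, and U2-E differs in background in mid-G1 with auxin.

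Calls differed among copies of 1 RNA, and differences between copies were not tested. Of the 9 U2 copies, U2-A, U2-C and U2-H fell and U2-D and U2-E rose between early-G1 and late-G1, and the other 4 did not pass the test. Of the 6 U5 copies, U5-C and U5-D rose, U5-E fell and 3 did not pass. Of the 4 U1 copies, U1-A rose and U1-B fell, U1-C changed by -0.41 and U1-D by 0.57. Ranked by summit pileup, no copy was called lower, and U2-A, U5-E and U2-C turned sign as given above. U1-B and U1-C, neighbours in Tex14, ranked 1 and 6, 1 and 5, 1 and 3, and 1 and 6 in the 4 early-G1 lists.

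Peaks were wider after mitosis, with medians over the copies of 1275 to 1592 bp in prometaphase, 2294 to 2902 in early-G1, 2216 to 2825 in mid-G1 and 1922 to 2462 in late-G1. Prometaphase lists had 4.94 to 5.95 recovered reads per kb of genome and post-mitotic lists 4.54 to 13.3. The shallowest of all 18, mid-G1 control replicate 1, had a median width above that of each prometaphase list, and the part of depth in width was not tested. Relative to the median width of each list, 0 of 27 member regions were called between early-G1 and late-G1, where 10.8% of all regions were, with an unadjusted p under 0.05 at 1 of the 27. With auxin, 0 were called against 0.405% of all regions, with an unadjusted p under 0.05 at 2. Over the 14 lists U5-A was the widest copy at a median of 4367.5 bp and U2-B the narrowest at 297.5 bp. U1-A was 776 to 1347 bp wide in the 14 lists and 811 to 1057 bp in prometaphase.

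The protein genes that make and use these RNAs were read at their own start sites. Of 83 listed genes, 77 were annotated and 70 had a start site in a region found in all 14 lists. From early-G1 to late-G1, 6 were called lower and 1 higher, with a median change of -0.28 against -0.05 over all regions and with 14.3% of all regions called. From early-G1 to mid-G1 9 were lower and 1 higher (13.3% of all regions called), from mid-G1 to late-G1 4 lower and 6 higher (6.96%), and with auxin 1 was higher (0.798%).

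By role, 0 of 8 tested genes of SNAPc and its activators were called by limma in these 4 comparisons, with an unadjusted p under 0.05 at 2, 2, 2 and 1 of them (auxin, early-G1 to late-G1, early-G1 to mid-G1, mid-G1 to late-G1). Among the 12 tested Integrator genes, which cleave the snRNA transcript, Ints7 fell from early-G1 to late-G1 by 2.12 (adjusted p = 0.00146). From early-G1 to mid-G1 Ints7 fell by 1.93 (adjusted p = 0.00139), Ints8 by 1.40 and Ints12 by 1.28. From mid-G1 to late-G1 Ints5 rose by 1.60 (adjusted p = 0.00202) and Ints8 by 0.90 (adjusted p = 0.0476). Among 14 genes of export and assembly, Ncbp1, a cap-binding protein, fell by 1.02 and Gemin6, of the SMN complex, by 1.16 from early-G1 to late-G1. Ddx20, another SMN complex member, was the 1 gene higher with auxin (1.49, adjusted p = 0.00404). From early-G1 to mid-G1 Ddx20 fell by 1.43, Tgs1 by 1.08, Clns1a by 1.00 and Smn1 by 0.99. From mid-G1 to late-G1 Ddx20 rose by 1.49, and Snupn and Gemin5 fell by 1.21 and 1.00. Among 33 genes of Sm and snRNP proteins, Snrpd3, Snrpa1 and Snrpb2 fell from early-G1 to late-G1 by 0.93, 1.12 and 0.96. Zmat5, of the U11/U12 particle, rose by 1.25 between the same stages (adjusted p = 0.00462). From early-G1 to mid-G1 Snrpb rose by 1.53, and Snrnp40 and Sf3a3 fell by 1.41 and 0.99. From mid-G1 to late-G1 Snrpb and Snrpg fell by 1.52 and 1.41, and Prpf3, Prpf6 and Zmat5 rose by 1.51, 1.12 and 1.05.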

How the data were processed

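PolII ChIP-seq peak lists of 18 libraries were analysed. Per the study's methods the authors aligned 50-base single-end reads to mm9 with Bowtie2 (2.2.9), removed reads with mapping quality under 10 and duplicates with SAMtools (0.1.19), removed blacklisted and mitochondrial regions with bedtools (2.27.1), and called peaks in each library against its stage's input with MACS2 (2.1.0) at a q-value of 0.01. They treated the libraries as biological replicates and left out 1 late-G1 library for a technical error. For late-G1, the study's reporting summary names auxin replicate 1 among its read files. Among its peak files it names a control replicate 1 in place of it. The sample labels, which give auxin replicate 1, were followed here, so late-G1 auxin results rest on that label.

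The deposited lists give, for each peak, coordinates and a summit offset (units recorded as other), a score, a fold enrichment (ratio) and -log10 of the p- and q-values. Each deposited list comes from 1 library. The lists hold no read counts, so pileup and local background at each summit were recovered by solving the fold and -log10 p together; in all 18 lists 100% of recovered pileups were whole within 0.02.

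Peaks of all lists were merged into 169903 regions. Fold enrichment has no common scale between lists, so -log2 of the rank within a list was fitted with limma (3.58.1, R 4.3.3) over 15784 regions found in all 14 post-mitotic lists (897 in all 18), 1 estimate of the spread per fit, with Benjamini-Hochberg adjustment over all regions. The fit of late-G1 against early-G1 was tested on simulated data, with normal noise and with the spreads shuffled among regions. The simulation therefore does not show how the test behaves for members at the head of a list, where the spread was wider. Copies were matched with Python 3.11.15 (pandas 2.3.3, numpy 2.4.6, scipy 1.17.1, pysam 0.24.0, Biopython 1.88; figures with matplotlib 3.10.9), and sequences come from the mm9 (NCBIM37) genome with GENCODE vM1. The members and gene lists were chosen with earlier results of these data known. Named were all copies in every post-mitotic list, all in a called region, and those nearest the 500 bp limit. A marker gene and a copy near that limit are not reported here. Alternatives were the normal score of the rank, ranks by -log10 p, peaks joined within 1 kb (1000 bp), regions in at least 10 of 14 lists, -log10 q of at least 5, a replicate block, and each library left out.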

Additional observations from a re-analysis of the deposited data

How the results depend on the processing

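Rank scale mattered most. With the normal score of the rank, which weighs the head of a list less, 3 regions were called for auxin (126 as reported), 246 between early-G1 and late-G1 (2251), 267 between early-G1 and mid-G1 (2103) and 34 between mid-G1 and late-G1 (1098), and members called were 0, 2, 2 and 0 (1, 12, 9 and 5). Regions in at least 10 of 14 lists gave 4421 and 3898 calls for the 2 comparisons with early-G1, where more regions were tested. With ranks by -log10 p, 246 regions and 0 members were called between mid-G1 and late-G1. Ranks by summit pileup, an alternative chosen after seeing the data, gave 196 regions and 0 members for auxin and 136 regions and 0 members between mid-G1 and late-G1. Under it 6 named changes turned sign: between early-G1 and late-G1 U2-A to 1.40, U5-E to 0.86 and U2-C to 0.44, and between mid-G1 and late-G1 U2-A to 0.13, U5-E to 0.16 and U2-E to -0.06. The cause was not tested.

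With a replicate block, 54 regions and 2 members were called for auxin, and 2641, 2386, 1347 and 389 regions in the stage comparisons. Deviations of same-numbered mid-G1 libraries from their group means had r of 0.093, 0.117 and 0.285. Control replicate 3 had r of -0.178 and -0.147 with auxin replicates 1 and 2. Auxin replicate 3 had r of -0.121 and -0.188 with control replicates 1 and 2. The unlike-numbered pairs of replicates 1 and 2 had r of 0.098 and 0.044. Whether same-numbered libraries share a preparation was not tested, and 2 libraries per condition cannot show it in early-G1 or late-G1. Leaving out 1 library at a time, members called ranged from 1 to 2 for auxin (63 to 180 regions), 8 to 12 between early-G1 and late-G1 (1313 to 2843), 4 to 12 between early-G1 and mid-G1 (1116 to 2316), 4 to 7 between mid-G1 and late-G1 (564 to 1198) and 6 to 7 between prometaphase and early-G1 (301 to 440). The auxin count was 2 without late-G1 control replicate 3 or late-G1 auxin replicate 2. The member number was 60 to 63. Of named changes, 384 kept direction and call and 58 lost the call. Depth is known only as recovered from the peaks, and each group rests on 2 or 3 libraries.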

Other observations

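U6 and U6atac, the partners made by RNA polymerase III, had peaks within 500 bp at 138 of 964 annotated copies, 134 of 936 for U6 and 4 of 28 for U6atac. Of the U6 copies, 20 were in all 14 post-mitotic lists and 2 in all 4 prometaphase lists. U6 and U6atac copies found numbered 2 to 5 per prometaphase list, 65 to 84 in early-G1, 32 to 78 in mid-G1 and 53 to 83 in late-G1. Over 46 tested regions, 4 were called between early-G1 and late-G1 (2 lower, 2 higher), 7 between early-G1 and mid-G1 (5 lower, 2 higher) and 3 between mid-G1 and late-G1 (2 lower, 1 higher), where 14.3%, 13.3% and 6.96% of all regions were called, and limma called 0 with auxin (7 at an unadjusted p under 0.05). Whether those peaks are PolII of a neighbouring gene was not tested.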
